A study of Rattus norvegicus with 20 samples.

Results

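Zinc-dependent histone deacetylases were followed across the medial prefrontal cortex (mPFC) of 20 male Sprague-Dawley rats. The 10 members were taken by gene symbol, namely Hdac1 to Hdac9 and Hdac11, out of 31038 genes listed in the count matrix. All 10 were listed, 9 had reads, and the same 9 passed the filter on low counts (5 or more reads in 10 or more libraries) and were tested among 16605 genes. 10 rats, written here as the LSD group, received LSD at 0.16 mg/kg and the other 10 received saline. Injections were intraperitoneal, were given every other day for 90 days, and were followed by 3 weeks without treatment in both groups. The labels give an age of 6 to 8 weeks and a weight of 180 to 200 g at the start. The study's methods give another age and another interval without treatment, again the same for both groups. Each library holds polyadenylated RNA from the mPFC of 1 hemisphere of 1 rat. The comparison between the groups asks which deacetylase transcripts differ after the repeated drug exposure has ended.

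Histone deacetylases remove acetyl groups from lysines of histone tails, which tightens the contact between histones and DNA and in general lowers transcription. Class I members (Hdac1, Hdac2, Hdac3 and Hdac8) sit in the nucleus, most of them as catalytic subunits of co-repressor complexes. Class IIa members (Hdac4, Hdac5, Hdac7 and Hdac9) have little catalytic activity of their own, bind MEF2 transcription factors and leave the nucleus when calcium-regulated kinases phosphorylate them and 14-3-3 proteins hold them in the cytoplasm. Hdac6 and Hdac10 form class IIb, and Hdac6 works mostly on cytoplasmic substrates such as alpha-tubulin. Hdac11 is the sole class IV member and is well expressed in brain. In the forebrain these enzymes have been studied above all for memory, addiction and the response to stress.

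Levels are given as CPM, read counts scaled by TMM to a common library size, which corrects for depth and for a few genes taking many reads. Libraries of the LSD rats held 16346629 to 25552681 reads on genes (median 20271086) and those of the saline rats 11098076 to 24201351 (median 16815424), so the LSD libraries were deeper at the median. Neuronal, astrocyte, oligodendrocyte and microglial markers were present in every library, and choroid plexus markers summed to at most 4.83 CPM. 4 libraries (LSD replicate 9 and saline replicates 2, 8 and 9) had a summed level of 5 striatal markers of 331.0 to 466.3 CPM, against at most 217.4 CPM in the others. With edgeR's quasi-likelihood F test and Benjamini-Hochberg adjustment over all genes, 1076 genes were higher and 1418 lower in LSD rats, 15% of those tested. Scaling by total reads alone turned this split to 1504 higher and 858 lower and shifted the median over all genes from 0.00 to 0.05 in log2 fold change.

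Of the 9 deacetylases tested, 2 fell and 0 rose at an adjusted p under 0.05 (edgeR), which is 22.2% of the members beside 15% of all genes tested. The genes that fell were Hdac5 and Hdac11, beside 8.54% of all genes called lower and 6.48% called higher. At an unadjusted p under 0.05 there were 3 members, the third being Hdac2 with a higher level, beside 30.8% of all genes. DESeq2 also called 0 members higher. Signs were mixed, with 3 positive and 6 negative log2 fold changes and a median of -0.06. Both calls were lost when depth entered the fit, with the values given beside each gene.

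**Figure D1:**
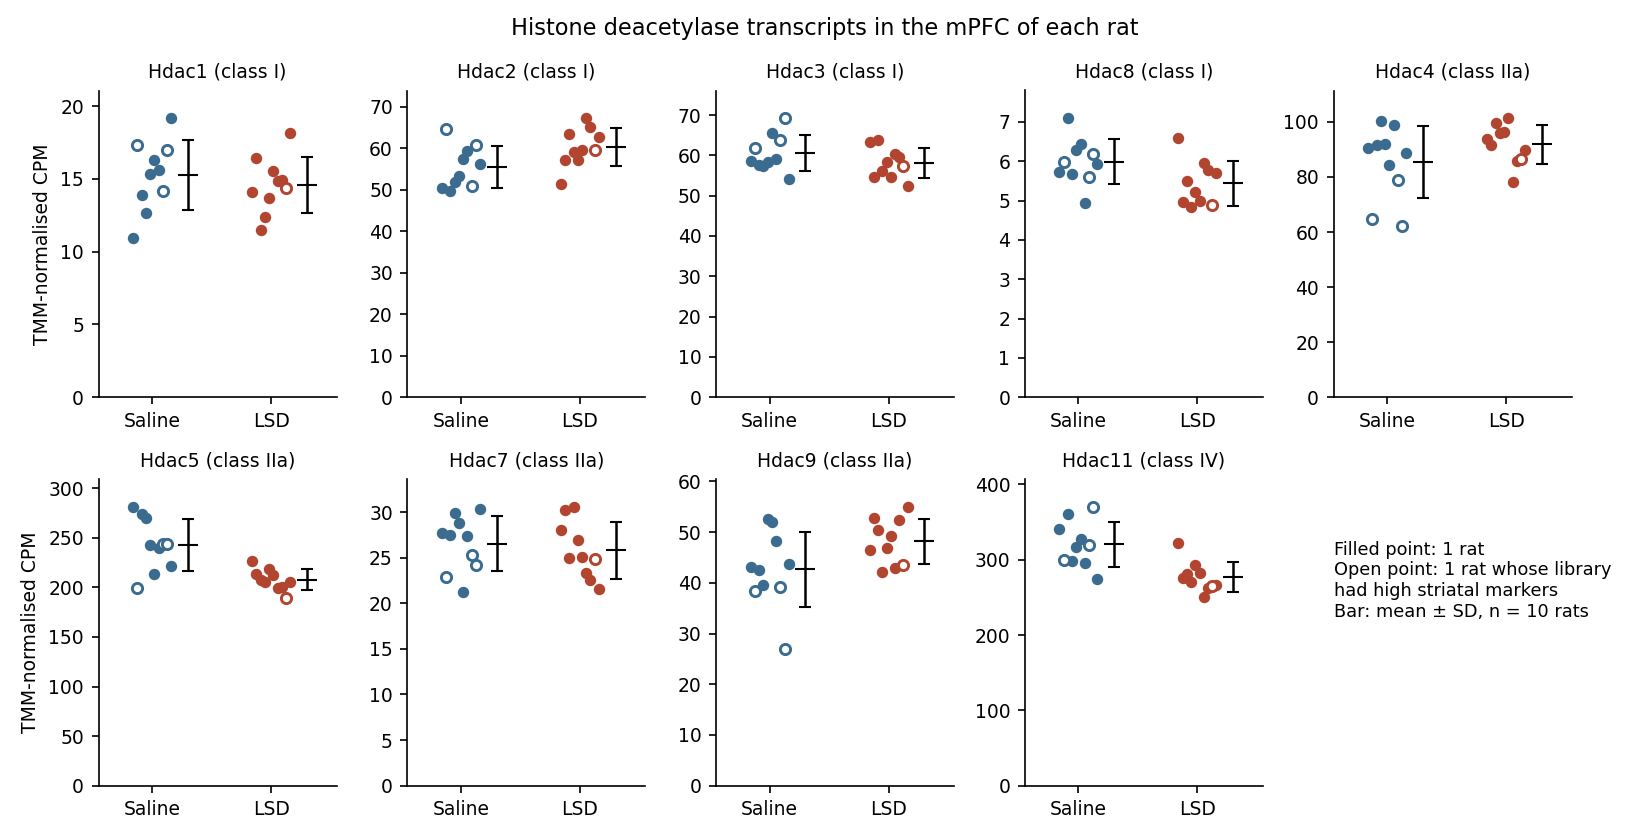
TMM-normalised CPM of the 9 deacetylases with reads, by group, on linear axes that start at 0; points are rats, open points the 4 libraries with high striatal markers, and bars the mean ± SD of 10 rats. Hdac5 and Hdac11 sit lower in LSD rats with overlapping ranges, and the lowest saline values of Hdac4 and Hdac9 belong to open points.

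Promoter windows of 3 class IIa genes are printed here because these genes carried log2 fold changes of opposite sign: Hdac5 fell, and the values of Hdac4 and Hdac9 were positive without passing the test. The windows run from 250 bases before to 50 bases after the start site in RefSeq's GRCr8 annotation, 5′ to 3′ on the strand of the gene, and such a window was given for 9 of the 10 members. That build is not the rn6 build of the counts. Capitals mark 5 motifs searched on both strands: the GC box with the letters GGGCGG, the box named CCAAT after its letters, the E-box in the form CACGTG, the core of the cyclic AMP response element in the form TGACG, and 1 form of the MEF2 motif, which is the run of 10 capitals in the Hdac5 window. Matches on the opposite strand stand as their reverse complement.
Hdac5, chr10:87688005-87688304, minus strand: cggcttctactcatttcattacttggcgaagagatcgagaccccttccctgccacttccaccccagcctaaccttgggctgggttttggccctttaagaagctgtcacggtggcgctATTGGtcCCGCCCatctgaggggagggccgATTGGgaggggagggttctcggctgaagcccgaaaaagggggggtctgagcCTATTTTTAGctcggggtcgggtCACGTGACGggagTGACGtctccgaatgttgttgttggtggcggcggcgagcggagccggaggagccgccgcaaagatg
Hdac4, chr9:100197588-100197887, minus strand: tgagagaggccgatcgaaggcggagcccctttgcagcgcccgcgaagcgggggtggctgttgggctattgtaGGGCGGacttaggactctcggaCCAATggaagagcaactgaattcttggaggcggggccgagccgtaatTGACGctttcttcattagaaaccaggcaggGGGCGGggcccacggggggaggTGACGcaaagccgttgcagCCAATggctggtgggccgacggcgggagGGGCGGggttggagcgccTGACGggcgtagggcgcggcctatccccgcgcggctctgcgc
Hdac9, chr6:57052522-57052821, minus strand: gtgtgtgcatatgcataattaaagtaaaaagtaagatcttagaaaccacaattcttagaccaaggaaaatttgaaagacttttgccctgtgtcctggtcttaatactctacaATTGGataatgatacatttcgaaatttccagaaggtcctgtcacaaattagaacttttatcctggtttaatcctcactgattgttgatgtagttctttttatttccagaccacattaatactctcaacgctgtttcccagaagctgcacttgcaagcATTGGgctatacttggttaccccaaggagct

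The Hdac5 window held 1 match to the MEF2 letters, whose first base lies 52 bases before the start site, and these letters occurred in 0.135% of the 27457 promoter windows. It also held 1 E-box, which shares bases with the first of 2 TGACG matches, together with 2 CCAAT matches and 1 GC box. The Hdac4 window had 3 GC boxes, 2 CCAAT and 3 TGACG matches, and the Hdac9 window had 2 CCAAT matches alone. Among all windows, 34.9% held the GC box, 37.7% the CCAAT box, 22% the TGACG core and 6.65% the E-box. The windows also differed in CpG content, with 22 CpG in Hdac5, 30 in Hdac4 and 2 in Hdac9, beside a median of 7 over all windows. The window of Hdac7, the remaining class IIa gene, is not printed. It held 26 CpG and 0 matches to the 5 motifs, and Hdac7, like Hdac5, had a negative log2 fold change (-0.04, not called). A match describes letters only, and no binding was measured here.

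Hdac5, a class IIa enzyme whose nuclear export follows neuronal activity, was lower in LSD rats. Its level in LSD rats had a lowest value of 189.1, a median of 206.7 and a highest value of 226.4 CPM. In saline rats the lowest, median and highest values were 199.8, 243.1 and 281.2 CPM. All 10 LSD rats lay below the saline median and 2 below the lowest saline rat, while 7 saline rats lay above the highest LSD rat, so the ranges overlapped between 199.8 and 226.4 CPM. The mean was 207.8 ± 10.5 CPM in LSD and 242.9 ± 26.5 CPM in saline rats (SD, n = 10 each), which is 14.4% less (log2 fold change -0.22, standard error, SE, 0.057, adjusted p = 0.0135 by edgeR). The spread between rats was also smaller, with a coefficient of variation of 5.07% in LSD against 10.9% in saline rats. This was not particular to Hdac5, since the SD of the log level was smaller in LSD rats for 76.7% of all genes tested. With 2620 to 5333 reads per rat, counting error in the median library was 1.54%.

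The Hdac5 difference moved with depth. After removal of the group means, the Hdac5 level was lower in rats with more reads (r = -0.65 over 20 rats, permutation p = 0.00511, adjusted over 27 relations 0.0230; rho = -0.72, permutation p = 0.00058, adjusted 0.00475; r = -0.66 without the 2 rats of most extreme depth), with r = -0.78 within LSD and -0.62 within saline rats. Of the 9 members, 4 had a relation to depth past the threshold, with Hdac4, Hdac5 and Hdac7 lower and Hdac2 higher in deeper libraries. With log2 depth as a covariate in edgeR, its log2 fold change was -0.12 (SE 0.054, adjusted p = 0.140). Within the depth range that both groups share, with 8 LSD and 6 saline rats of which 3 saline rats and 1 LSD rat had high striatal markers, it was -0.11 (SE 0.057, adjusted p = 0.321), in a fit that called 0 of 16229 genes and had 17.3% of them under an unadjusted p of 0.05. Reads drawn down to the smallest library left it at an adjusted p under 0.05, and so did each of the 20 fits without 1 rat, with adjusted p between 0.00325 and 0.0314. How much of the difference belongs to depth cannot be told apart from treatment by these fits.

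Hdac11, the class IV enzyme, had the other negative call. Its lowest, median and highest values were 251.0, 272.9 and 322.0 CPM in LSD rats. In saline rats they were 273.9, 318.5 and 370.3 CPM. 9 LSD rats lay below the saline median and 5 below the lowest saline rat, while 1 LSD rat lay above that median. The mean was 277.0 ± 19.7 CPM in LSD and 320.5 ± 30.3 CPM in saline rats (SD, n = 10 each), which is 13.6% less (log2 fold change -0.21, SE 0.056, adjusted p = 0.0170 by edgeR). The call held in all 20 fits without 1 rat, with adjusted p between 0.00637 and 0.0371. With depth as a covariate the log2 fold change was -0.15 (SE 0.059, adjusted p = 0.103), and in the shared depth range it was -0.16 (SE 0.066, adjusted p = 0.249). The relation of Hdac11 to depth over 20 rats had r = -0.41 (permutation p = 0.0957, adjusted 0.258; rho = -0.48, permutation p = 0.0405, adjusted 0.109; r = -0.49 without 2 rats), and r was -0.87 within LSD and -0.18 within saline rats.

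Summed oligodendrocyte markers (Mbp, Mog, Mobp and Mag) ranged from 1484 to 4113 CPM in LSD rats (median 2667). In saline rats the sum ranged from 1541 to 5367 CPM (median 3403). By edgeR 0 of the 4 markers were called, though each had a negative log2 fold change, from -0.22 in Mog to -0.48 in Mag (adjusted p = 0.0715). Hdac11 had little relation to this sum over the 20 rats (r = 0.11, permutation p = 0.656, adjusted 0.815; rho = 0.12, permutation p = 0.620, adjusted 0.889; r = 0.13 without 2 rats). In bulk tissue, fewer cells of a type and less RNA per cell cannot be told apart. Among the other markers, edgeR called 1 of 4 lower for oligodendrocyte precursors (Olig1), with a sum of 227.9 to 325.4 CPM in LSD and 252.7 to 361.9 CPM in saline rats, and 1 of 4 lower for neurons (Tubb3; sums of 4242 to 5272 and 4086 to 5563 CPM). For inhibitory neurons 2 of 6 were higher (Gad2 and Vip) and 2 lower (Slc32a1 and Sst), with sums of 657.8 to 817.3 and 698.0 to 935.7 CPM. For pericytes 1 of 3 was lower (Kcnj8; sums of 56.2 to 77.5 and 61.4 to 96.1 CPM), and for blood 1 of 3 was lower (Hbb; sums of 190.4 to 471.1 and 265.0 to 741.3 CPM). The part of these markers in the Hdac5 and Hdac11 values was not tested.

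None of the 4 class I members passed the test. Hdac2, the subunit of the Sin3, NuRD and CoREST complexes most linked to memory, had a lowest, median and highest value of 51.4, 59.6 and 67.2 CPM in LSD rats and of 49.8, 54.7 and 64.7 CPM in saline rats. 9 LSD rats lay above the saline median, yet 8 of 10 lay inside the saline range. Its means of 60.2 ± 4.57 and 55.4 ± 5.04 CPM gave a log2 fold change of 0.12 (SE 0.056, adjusted p = 0.151 by edgeR). Of the members, Hdac2 had the strongest r with depth, with a higher level in deeper libraries (r = 0.74 over 20 rats, permutation p = 0.00024, adjusted 0.00648; rho = 0.78, permutation p = 8.0e-05, adjusted 0.00216; r = 0.76 without 2 rats). With depth as a covariate its log2 fold change was 0.01 (adjusted p = 0.910).

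Hdac1, the close paralog that shares these complexes, had 14.6 ± 1.92 CPM in LSD and 15.2 ± 2.40 CPM in saline rats (SD, n = 10 each), a log2 fold change of -0.07 (SE 0.092, adjusted p = 0.673). It was -0.16 with depth as a covariate (adjusted p = 0.298) and -0.19 in the shared depth range (adjusted p = 0.335). All 10 LSD rats lay inside the saline range. RefSeq's GRCr8 annotation names 18 Hdac1 pseudogenes, of which 0 are in the matrix, so how reads from near-identical copies were counted is uncertain for Hdac1. Hdac1l, a related sequence listed beside it, had 1.12 ± 0.199 CPM in LSD and 0.986 ± 0.359 CPM in saline rats (SD, n = 10 each; log2 fold change 0.15, adjusted p = 0.623).

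Hdac3, the catalytic subunit of the NCoR and SMRT co-repressors, had 58.1 ± 3.78 CPM in LSD and 60.6 ± 4.50 CPM in saline rats (log2 fold change -0.06, SE 0.049, adjusted p = 0.414). Hdac8, which deacetylates the cohesin subunit Smc3, was the most shallowly counted member with 68 to 159 reads per rat and a counting error of 9.78%. It had 5.44 ± 0.565 CPM in LSD and 5.99 ± 0.577 CPM in saline rats (SD, n = 10 each). 9 LSD rats were below the saline median, with a log2 fold change of -0.14 (SE 0.076, adjusted p = 0.224). Counting error was then as large as the coefficient of variation between rats, which was 10.4% in LSD and 9.63% in saline rats. Summed over class I, the level was 138.3 ± 5.68 CPM in LSD and 137.3 ± 9.53 CPM in saline rats.

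The other class IIa members did not pass the test. Hdac4, a repressor of MEF2 targets needed for learning in mice, had a lowest, median and highest value of 78.1, 92.7 and 101.3 CPM in LSD and of 62.3, 89.6 and 100.4 CPM in saline rats. 2 saline rats lay below every LSD rat, and both are libraries with high striatal markers. The log2 fold change was 0.11 (SE 0.077, adjusted p = 0.363), it was 0.00 without the 4 such libraries, and it was 0.27 (SE 0.069, adjusted p = 0.0302) with depth as a covariate. The Hdac4 level fell with the striatal marker sum (r = -0.70 over 20 rats, permutation p = 0.00431, adjusted 0.0230; rho = -0.61, permutation p = 0.00938, adjusted 0.0362; r = -0.81 without 2 rats) and with depth (r = -0.71, permutation p = 0.00092, adjusted 0.00828; rho = -0.75, permutation p = 0.00018, adjusted 0.00243; r = -0.67 without 2 rats).

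Hdac9, the class IIa member with the longest gene, had a lowest, median and highest value of 42.1, 48.0 and 55.0 CPM in LSD and of 27.0, 42.8 and 52.5 CPM in saline rats. 9 LSD rats lay above the saline median, and the lowest saline value came from a library with high striatal markers. The log2 fold change was 0.18 (SE 0.088, adjusted p = 0.173 by edgeR) and 0.08 without those 4 libraries. It was 0.28 with depth as a covariate (adjusted p = 0.0829) and 0.22 in the shared depth range (adjusted p = 0.313). The Hdac9 level also fell with the striatal marker sum (r = -0.70 over 20 rats, permutation p = 0.00067, adjusted 0.00828; rho = -0.70, permutation p = 0.00075, adjusted 0.00475; r = -0.79 without 2 rats). It fell with the oligodendrocyte marker sum as well (r = -0.66, permutation p = 0.00275, adjusted 0.0186; rho = -0.72, permutation p = 0.00088, adjusted 0.00475; r = -0.59 without 2 rats). For Hdac4 the relation to this sum passed by r and not by rank (r = -0.59, permutation p = 0.0142, adjusted 0.0478; rho = -0.55, permutation p = 0.0187, adjusted 0.0562; r = -0.64 without 2 rats). Beyond the fit without the 4 libraries, the part of these marker sums in the group values of Hdac4 and Hdac9 was not tested.

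Hdac7, a class IIa member best known from blood vessels and lymphocytes, had 25.8 ± 3.08 CPM in LSD and 26.5 ± 3.04 CPM in saline rats (log2 fold change -0.04, SE 0.075, adjusted p = 0.761). Its sign turned with scaling by total reads and with both fits on depth. Summed over class IIa, the level was 373.6 ± 18.6 CPM in LSD and 397.4 ± 38.9 CPM in saline rats (SD, n = 10 each).

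**Figure D2:**
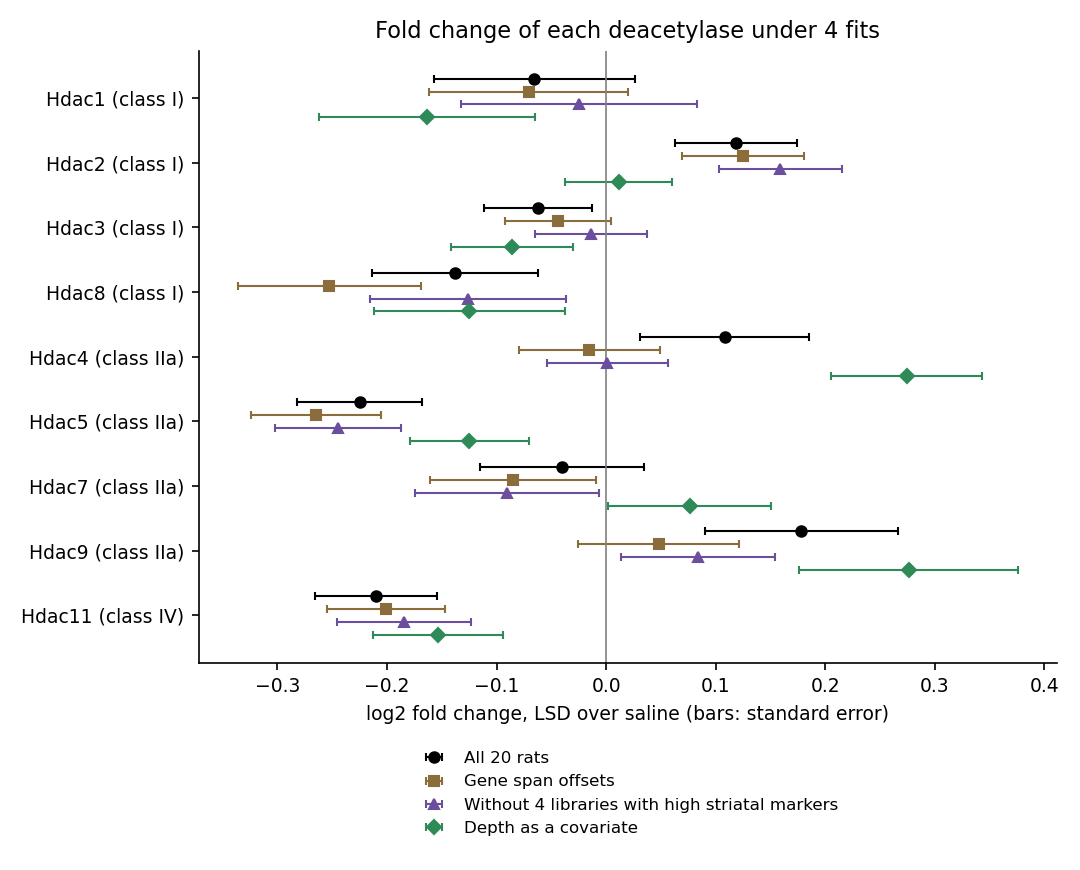
Log2 fold change of each deacetylase, LSD over saline, with its standard error from edgeR, for all 20 rats and for 3 alternatives. Hdac5 and Hdac11 are negative in all 4 fits and nearer to 0 with depth as a covariate, at -0.12 and -0.15, whereas Hdac4 ranges from -0.02 with gene span offsets to 0.27 with the depth covariate.

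Gene span, the distance from the start to the end of a gene with its introns, ran with the fold changes of all genes. Across 14271 genes with a span in GRCr8, the log2 fold change rose with span (Spearman's rho = 0.36, a description across genes, which are not independent). Tested members lay in the middle and longer part of this range, from 19215 bases in Hdac3 (percentile 42.2) and 21541 bases in Hdac11 to 250023 in Hdac4 and 862183 in Hdac9, which exceeds 99.4% of tested genes. Among the genes of the highest span decile the median log2 fold change was 0.11, as was the value of Hdac4. With offsets for span, the log2 fold change was -0.02 for Hdac4 (adjusted p = 0.908), 0.05 for Hdac9 and -0.25 for Hdac8 (adjusted p = 0.0547). Hdac5 and Hdac11 passed with span offsets. Within its own span decile, the Hdac5 value was at percentile 5.75 and the Hdac11 value at percentile 12.4. A low place was not particular to the calls, since Hdac8, which was not called, was at percentile 7.08 of its decile.

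Hdac6, the cytoplasmic class IIb deacetylase of alpha-tubulin, was listed at 0 reads in all 20 libraries. A floor of 3 reads per library stands for 0.117 to 0.270 CPM, here scaled by total reads without TMM, and covers counting error only. Protein-coding neighbours in GRCr8 order were read as well: Gata1 before it had 0 reads, Eras after it had 0, followed by Pcsk1n with 6 and Timm17b with 0 reads over all libraries. Pcsk1n encodes an abundant neuronal peptide, and the matrix holds almost no read of it either. Farther out, Suv39h1 had 4131 and Pqbp1 10567 reads. Hdac6 is therefore given only as listed at 0, and whether this stretch was countable in the annotation used was not tested. Hdac10, the other class IIb gene, had 21.5 ± 4.24 CPM in LSD and 22.9 ± 5.35 CPM in saline rats (log2 fold change -0.09, adjusted p = 0.702), and its sign turned in both fits on depth.

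Ratios within a rat are free of the scaling between libraries, but not of depth or gene span. With depth, Hdac2 had r = 0.74 and Hdac11 r = -0.41, the latter not past the threshold, and LSD libraries were deeper at the median. Span offsets moved the log2 fold change of Hdac4 from 0.11 to -0.02 and that of Hdac9 from 0.18 to 0.05. The part of depth and span in the ratios was not tested. The pairs were chosen after the fold changes were seen, so the ratios are a description with no test. The ratio of Hdac5 to Hdac4 reads was 2.27 ± 0.148 in LSD rats (range 2.09 to 2.55) and 2.89 ± 0.446 in saline rats (range 2.42 to 3.91). 9 LSD rats lay below the lowest saline rat. Without the 4 libraries with high striatal markers, the ranges were 2.09 to 2.55 and 2.42 to 3.11. For Hdac5 to Hdac9 the ratio was 4.35 ± 0.416 in LSD and 5.90 ± 1.42 in saline rats, and for Hdac11 to Hdac2 it was 4.64 ± 0.695 and 5.83 ± 0.833. Hdac11 to Hdac5 had the same mean of 1.33 in both groups, with an SD of 0.0503 in LSD and 0.145 in saline rats. The matrix comes without transcript lengths, so levels are not ranked between genes.

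**Figure D3:**
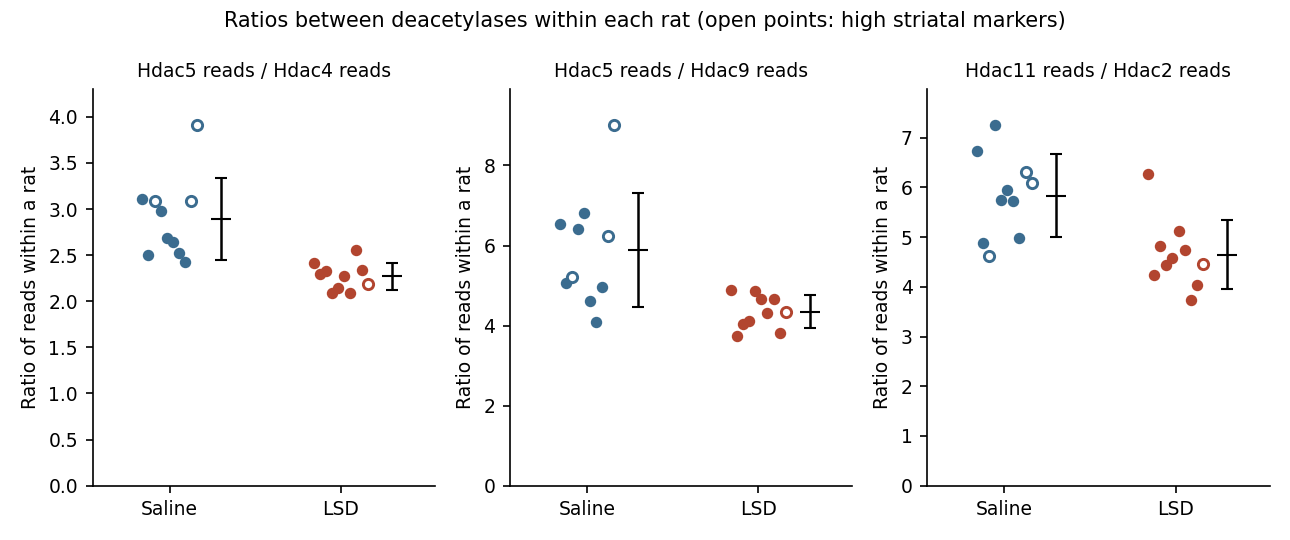
Ratio of the reads of 2 deacetylases within each rat, for 3 pairs, on linear axes from 0; points are rats, open points the libraries with high striatal markers, and bars the mean ± SD of 10 rats. The Hdac5 to Hdac4 ratio lies between 2.09 and 2.55 in LSD and between 2.42 and 3.91 in saline rats.

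Between rats, r between pairs of deacetylases took both signs, and 0 positive pairs passed the threshold. Over 36 pairs, with group means removed, 14 had a positive and 22 a negative r. Hdac2 with Hdac5 was the single pair past the threshold (r = -0.73 over 20 rats, permutation p = 0.00041, adjusted 0.0148; rho = -0.77, adjusted 0.0108). Its r was -0.69 within LSD rats, -0.79 within saline rats and -0.62 without the 2 rats of most extreme Hdac2 level. Both genes followed depth, and with log2 depth removed r was -0.50 (permutation p = 0.0621, adjusted 0.25), with 0 pairs past the threshold. None of the 6 pairs of class IIa members passed. Hdac4 with Hdac9 had r = 0.60 (permutation p adjusted 0.111), which fell to 0.25 without 2 rats, and Hdac4 with Hdac7 had r = 0.56 (permutation p adjusted 0.0979). Hdac5 with Hdac9 had r = -0.04 and Hdac7 with Hdac9 -0.01, and with depth removed these were -0.40 and -0.31. Hdac5 with Hdac11 had r = 0.53 (permutation p adjusted 0.132). In 7 of the 9 members the SD of the log level was smaller in LSD rats, beside 76.7% of all genes tested.

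**Figure D4:**
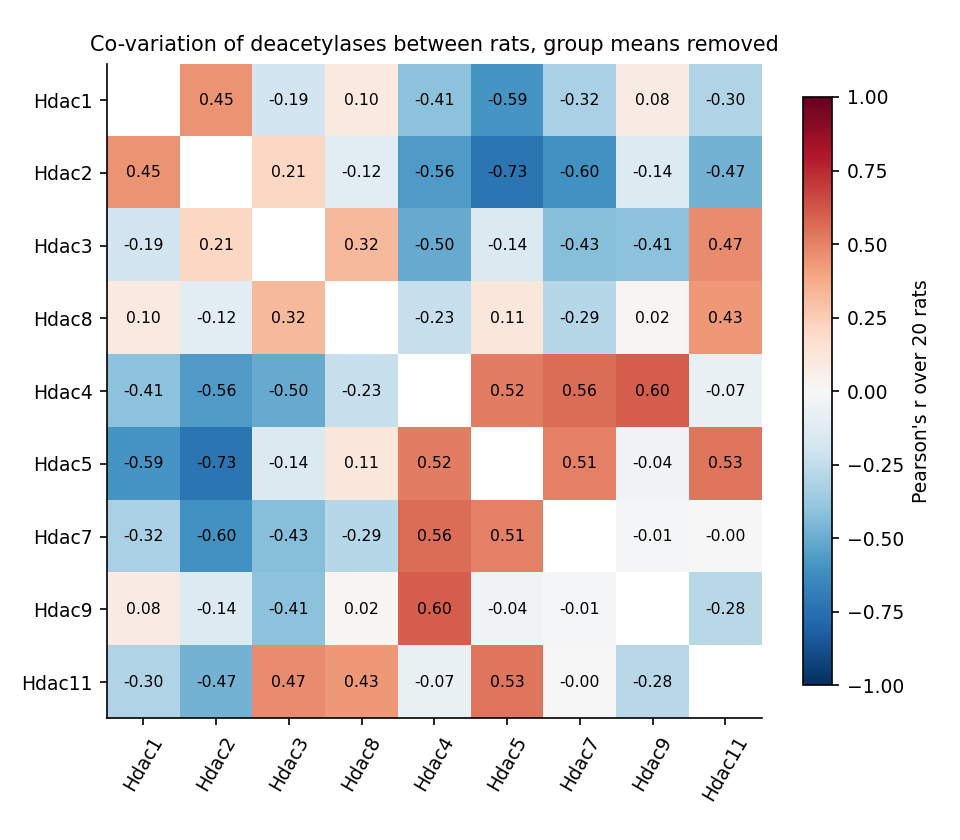
Pearson's r between the 9 deacetylases over 20 rats, on TMM log2(CPM + 1) with group means removed; red is positive and blue negative. The darkest cell is Hdac2 with Hdac5 at -0.73.

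Genes most like each member over the 20 rats were named by r alone, as a description. For Hdac5 they were Fam57b (r = 0.93) and Mvb12b (0.91), for Hdac11 Kctd1 (0.86) and RGD1560015 (0.85), and for Hdac2 Tspan13 (0.93) and Katna1 (0.93). Hdac4 was most like Ncoa2 (0.94) and Furin (0.92), Hdac9 most like Kcnb2 (0.87). Hdac1 was nearest to Cybrd1 (0.89) and Sdc2 (0.88), Hdac3 to Gnpda1 (0.81) and RGD1305733 (0.80), Hdac7 to Cfap65 (0.86) and Col27a1 (0.85), and Hdac8 to LOC688754 (0.75) and Paox (0.74). All of these share the libraries and their depth.

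Partners and counterparts of the deacetylases were read from 12 lists with 107 genes, 103 of them tested. 5 rose and 8 fell, 12.6% of those tested beside 15% of all genes. With scaling by total reads 13 rose and 6 fell, beside 1504 and 858 of all genes. With span offsets 1 rose and 8 fell, beside 579 and 1099 of all genes. In the Sin3 complex 1 of 14 rose, Brms1l (log2 fold change 0.21, adjusted p = 0.0425), and 1 fell, Sap30l (log2 fold change -0.19, adjusted p = 0.0436). In NuRD, the remodelling complex, 1 of 11 fell, the subunit Mbd3, from 120.9 ± 11.8 to 103.7 ± 3.66 CPM (log2 fold change -0.22, adjusted p = 0.00888). In the NCoR and SMRT complex 1 of 5 rose, Tbl1xr1 (0.19, adjusted p = 0.0269). CoREST with 7 tested genes had 0 calls in edgeR, 1 gene at an unadjusted p under 0.05 and 1 call in DESeq2, while MiDAC with 3 tested genes had 0 on all counts.

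For class IIa members, the kinases that drive nuclear export had 2 of 16 higher and 0 lower in edgeR, and DESeq2 called 3. At an unadjusted p under 0.05 in edgeR there were 5, beside 30.8% of all genes. Of these only Camk2b was lower (log2 fold change -0.16, adjusted p = 0.0618). Camk1d rose from 70.2 ± 8.56 to 88.1 ± 6.56 CPM (log2 fold change 0.33, adjusted p = 0.00580 by edgeR) and all 10 LSD rats lay above the saline median, and Camk4 rose as well (log2 fold change 0.32, adjusted p = 0.0364). Of the 4 MEF2 genes, 0 were called by edgeR or DESeq2 and 1 was at an unadjusted p under 0.05, and of the 6 tested 14-3-3 genes there were 0 on all counts. Mef2c, a MEF2 factor of cortical neurons, had 607.4 ± 55.2 CPM in LSD and 555.0 ± 57.3 CPM in saline rats (adjusted p = 0.169). Among acetylation's other enzymes, 0 of 12 acetyltransferases were called by edgeR or DESeq2 and 2 were at an unadjusted p under 0.05, with a median log2 fold change of 0.08. Of 7 sirtuins, the NAD-dependent deacetylases, 2 fell. Sirt2, a tubulin deacetylase abundant in oligodendrocytes, had -0.25 (adjusted p = 0.00940) and Sirt6, a histone deacetylase, had -0.34 (adjusted p = 0.0109). Of 11 bromodomain readers, 1 rose, Baz2b (0.22, adjusted p = 0.0415).

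Several of these calls sat near the threshold. Of the 20 fits without 1 rat, Brms1l passed in 6, Baz2b in 7, Sap30l in 8, Camk4 in 13 and Tbl1xr1 in 17, with adjusted p up to 0.0818. Their log2 fold changes stayed between 0.19 and 0.25 for Brms1l, 0.18 and 0.25 for Baz2b, -0.22 and -0.16 for Sap30l, 0.26 and 0.37 for Camk4 and 0.16 and 0.21 for Tbl1xr1. Mbd3, Sirt2, Sirt6 and Camk1d passed in all 20. Sirt6 lost its call with depth as a covariate (-0.14, adjusted p = 0.140) while the other 3 passed, and in the shared depth range, where 0 genes of the whole matrix were called by edgeR, Sirt6 was at -0.17 (adjusted p = 0.323).

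Of the 7 tested substrates and partners of Hdac6, 4 fell (57.1%), beside 8.54% of all genes called lower. Tuba1a, Tuba1b and Tuba4a among them belong to 1 family, alpha-tubulin, so they are not separate partners. Tuba1a fell from 226.0 ± 22.7 to 174.7 ± 19.9 CPM (log2 fold change -0.37, adjusted p = 0.00408) and Tuba1b from 365.7 ± 46.8 to 283.7 ± 40.8 CPM (-0.37, adjusted p = 0.00888), and all 10 LSD rats lay below the saline median for Tuba1a. Both encode alpha-tubulin, whose copies are near-identical, so the split of reads between them is uncertain. Tuba4a and the autophagy receptor Sqstm1 also fell, and both Tuba1a and Tuba1b passed in all 20 fits without 1 rat. With depth as a covariate Mbd3, Sirt2, Camk1d, Tuba1a and Tuba1b of these named genes passed (adjusted p 0.0210 to 0.0489 in edgeR). In that fit 6 list genes were called higher and 4 lower, beside 7.06% of all genes called. The 4 were Mbd3, Sirt2, Tuba1a and Tuba1b, so Tuba4a and Sqstm1 lost their calls. In the shared depth range 0 of the 103 genes passed, with 8 higher and 5 lower at an unadjusted p under 0.05 in edgeR.

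**Figure D5:**
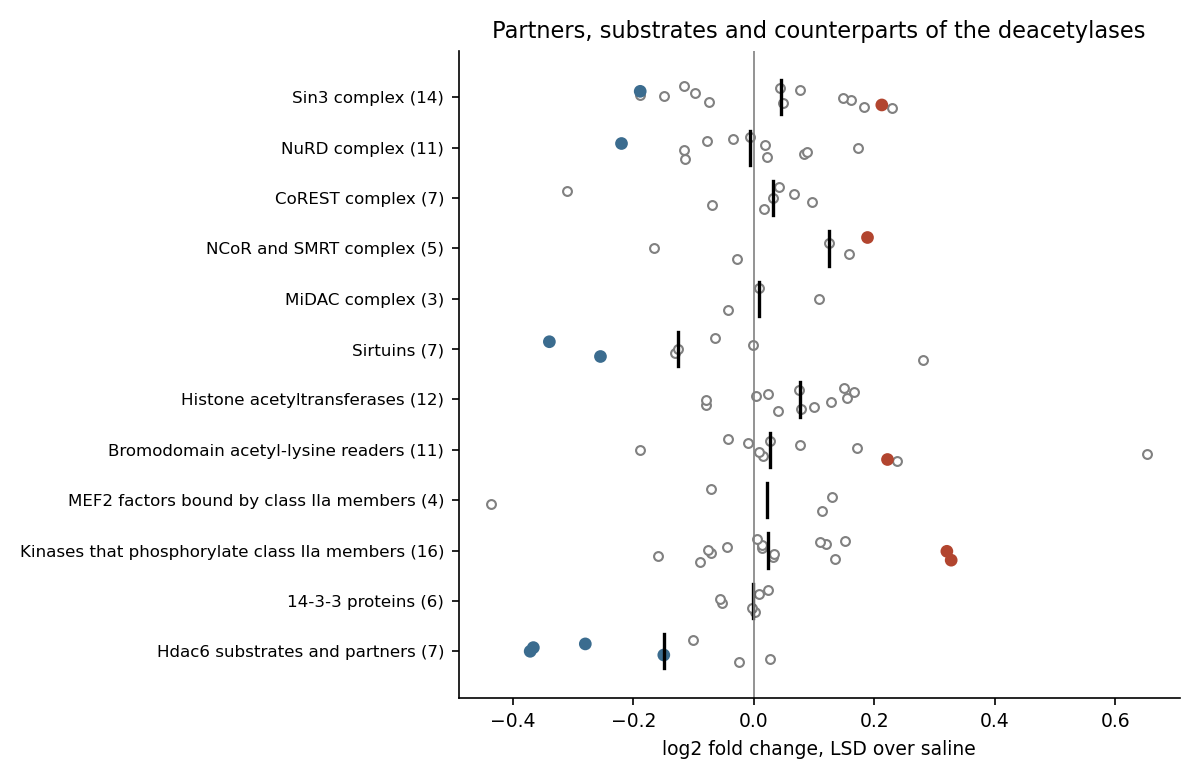
Log2 fold change, LSD over saline, of each tested gene in 12 lists, with the number tested in brackets; red and blue points passed the test in edgeR as higher and lower, open points did not, and black lines are medians. The lowest called values are those of alpha-tubulin genes, at -0.37, among the substrates and partners of Hdac6.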

How the data were processed

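RNA from the mPFC of 20 rats was sequenced, 1 library per rat. The authors used TrimGalore for trimming, HISAT2 for alignment to rn6 and HTSeq for counting, and deposited raw counts per gene. Versions, annotation and strand setting are not given in the sources used here. Besides 31038 genes, the matrix holds 5 unnamed rows with 25.5% to 29.0% of all reads, which entered no step, and 27 symbols written as dates. No library pair was identical.

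Groups came from the labels, which do not say how rats were housed or processed together. Counts were tested with edgeR 4.0.16 in R 4.3.3 (TMM, quasi-likelihood F test, 5 or more reads in 10 or more libraries, Benjamini-Hochberg adjustment over 16605 genes, threshold 0.05), after a test on simulated counts. Alternatives were DESeq2 1.42.0, other scalings and filters, the replicate number as a block, drawn-down reads, gene span offsets (GRCr8) and each rat left out. A depth covariate, the shared depth range and leaving out 4 libraries with high striatal markers (over 1.5 times the median sum) were chosen after seeing the data. Correlations used log2(CPM + 1) centred within groups and 100000 permutations of rats within groups (Python 3.11.15, numpy 2.4.6), adjusted over 36 pairs of members and over 27 relations of members to depth, striatal and oligodendrocyte markers, all two-sided. In relations to a measure, 2 rats farthest from its median were left out. Named list genes are up to 2 per direction with the smallest p among those called, and the genes most like a member are the 2 with the highest r. An oligodendrocyte marker, which was left out of the marker sum, and a gene most like a member are not reported here. The members and lists were chosen with earlier results of these data known. Intervals and floors cover counting error only, and the precision of each comparison rests on the spread over 10 rats.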

Additional observations from a re-analysis of the deposited data

Results flagged for a closer look

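Gaps between the highest or the lowest rat and its neighbour were examined in both groups for the 9 tested deacetylases, Hdac10, Hdac1l and the named list genes, 44 groups of 10 rats in all, of which 1 had a rat far from the others; chance flags about 1 group in 20. It was Sirt6, where LSD replicate 1 had 45.7 CPM and the next rat 37.1 CPM, a gap of 0.602 of the group's range. LSD replicate 1 was the shallowest LSD library, with 16346629 reads, and without it the log2 fold change of Sirt6 stayed negative and past the threshold, as in all 20 fits without 1 rat (edgeR, adjusted p 0.00179 to 0.0249). No deacetylase member had such a gap.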

How the results depend on the processing

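The 2 calls, Hdac5 and Hdac11, kept their direction and their adjusted p under 0.05 in edgeR with other size factors and filters, drawn-down reads, span offsets and the replicate block, in DESeq2, without the 4 libraries with high striatal markers and in all 20 fits without 1 rat, where the log2 fold change ranged from -0.25 to -0.20 for Hdac5 and from -0.24 to -0.19 for Hdac11. Neither Hdac5 nor Hdac11 passed in the fits on depth, though both stayed negative. Fewer genes passed over the whole matrix in these fits, and whether depth itself removed the 2 calls was not tested. With depth as a covariate, 1 member was called, 1 higher (Hdac4, 0.27) and 0 lower. Hdac5 was then at -0.12 and Hdac11 at -0.15. At an unadjusted p under 0.05 in that fit, 2 members were higher and 2 lower, beside 26.9% of all genes tested. In the shared depth range 0 members were called, 0 of them lower, with Hdac5 at -0.11 and Hdac11 at -0.16. There 1 member was higher and 1 lower at an unadjusted p under 0.05, beside 17.3% of all genes tested. Genes called over the whole matrix went from 1076 higher and 1418 lower to 534 and 639 with the covariate and to 0 and 0 in the shared range, where fewer rats entered; the cause was not tested.

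Signs turned for Hdac4 with span offsets (-0.0155), for Hdac7 with scaling by total reads (0.00456), the depth covariate (0.0762) and the shared range (0.0725), for Hdac10 with the covariate (0.14) and the shared range (0.0899) and for Hdac1l with both (-0.13 and -0.15). List genes called numbered 13 (5 higher and 8 lower), with 13 higher and 6 lower under scaling by total reads, 1 higher and 8 lower with span offsets, and 1 to 9 higher and 6 to 11 lower without 1 rat. The total was 20 in DESeq2, 23 without the 4 libraries, 0 in the shared range and 7 to 19 without 1 rat: without LSD replicate 4 there were 8, without LSD replicate 8 there were 7, without saline replicate 5 there were 7 and without saline replicate 9 there were 8. The share called over all genes tested moved as well. It was 15% in the main fit, 18% in DESeq2, 20.9% without the 4 libraries, 0% in the shared range and 9.89% to 21.7% without 1 rat. Pairs of members past the threshold numbered 1, against 3 with scaling by total reads, 0 without 2 rats and 0 with depth removed. Rats with the same replicate number had r over 0.1 in 6 of 10 pairs (range -0.259 to 0.467). Only 1 LSD rat correlated best with its own number. Whether a number stands for a shared batch is not in the labels and was not tested. The replicate block called 1355 genes higher and 1606 lower and left 2 members called, Hdac5 at -0.22 and Hdac11 at -0.21. Without the filter 960 and 836 genes were called. At 68 to 159 reads, depth limits Hdac8 most.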
